A study of Arabidopsis thaliana with 4 samples.

Results

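The wide AG-GFP peaks are the stretches of at least 350 bp in a ChIP-seq peak list for AGAMOUS (AG), a MADS-domain transcription factor of Arabidopsis thaliana. They were chosen by their width, taken as end minus start plus 1. There were 328 such peaks of 1421 in all (23.1%), and the other 1093 peaks, called narrower peaks here, serve as their comparison. The study mapped where AG tagged with green fluorescent protein sat on the genome of inflorescences. Plants of the genotype AG-GFP AP1-GR ap1 cal gave 2 libraries, and negative control plants of the genotype AP1-GR ap1 cal gave 2 more. All plants were Ler-0, carried a 35S:AP1-GR transgene and the ap1-1 and cal-1 mutations, and were treated with 10 µM dexamethasone. Dexamethasone lets the AP1-GR fusion enter the nucleus, and the arrested meristems of ap1 cal plants then form flowers together. Tissue was taken 4 days later, and an anti-GFP antibody recovered the chromatin. The labels do not give the promoter that drives AG-GFP. Since the AG-GFP and 35S:AP1-GR transgenes hold sequence of AG and AP1, signal from a transgene and from the native locus cannot be told apart at these genes.

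AG specifies stamens and carpels and ends the growth of the floral meristem. It binds DNA as part of complexes with other MADS-domain proteins, the SEPALLATA proteins among them, at short elements known as CArG boxes. A peak is a stretch where immunoprecipitated reads pile up, and a wide one can hold several binding sites or one strong site with long flanks. The deposited tables hold 1 score and 1 position per peak for the whole series. They give no value per library, so no value here carries a replicate error, the depth is unknown, and the level in the negative control libraries cannot be shown peak by peak. Each score below is the authors' Poisson score, used only to describe or rank peaks within the list, and each coordinate is theirs, on the TAIR10 build.

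Wide peaks lay close upstream of 6 microRNA genes. The authors' annotation gives their mature sequences, shown here because they tell which microRNA families were linked to wide peaks. They are written 5′ to 3′ in DNA letters, with the seed (bases 2 to 8 of the mature strand) in capitals.
MIR159a: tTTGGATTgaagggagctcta
MIR158a: tCCCAAATgtagacaaagca
MIR172d: aGAATCTTgatgatgctgcag
MIR166d: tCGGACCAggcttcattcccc
MIR166g: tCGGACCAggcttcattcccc
MIR391: tTCGCAGGagagatagcgcca
MIR166d and MIR166g had the same mature sequence, and the 6 genes therefore held 5 different seeds. The peak of MIR166g was 487 bp wide and scored 587, that of MIR166d was 419 bp and 383, and that of MIR172d was 459 bp and 112. MIR159a had a peak of 394 bp with a score of 269, MIR158a one of 358 bp with 289, and MIR391 one of 363 bp with 58.4. In each case the linked wide peak lay within 1000 bp upstream of the gene. Except for that of MIR172d, these wide peaks were linked to other target genes as well. That of MIR391 had its position inside one of them, AT5G60400. Narrower peaks were linked as well to MIR166d (290 and 197 bp), MIR166g (306 bp) and MIR172d (330 bp).

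The seeds of MIR166d and MIR159a also occurred at microRNA genes that had narrower peaks only. MIR166b and MIR166c, with the mature sequence of MIR166d, had peaks of 302 and 290 bp with scores of 76.8 and 199.5. The peak of MIR166c was also linked to MIR166d, 1000 to 2000 bp upstream. MIR165a differed from MIR166d by T17C (counted from the 5′ end, the base of MIR166d first) and had a peak of 97 bp with a score of 68.6. MIR159b differed from MIR159a by A21T and had a peak of 169 bp with a score of 110.0. MicroRNA genes made up 6 of 450 target genes of wide peaks (1.33%), against 25 of 1465 target genes with narrower peaks only (1.71%). This difference was not tested.

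Wide peaks covered 185388 bp, which is 46.1% of the 401950 bp in the list. Their median width was 445 bp (quartiles 392 and 560 bp, maximum 7045 bp), against 198 bp for the narrower peaks (quartiles 133 and 262 bp). Their median score was 311 (quartiles 162 and 637, range 56.2 to 12585), against 113 for the narrower peaks (quartiles 68.6 and 205, maximum 2044). Of the wide peaks, 261 (79.6%) scored at or above the median of the whole list, 139.67, against 450 of the narrower peaks (41.2%). All 10 of the 10 highest scores and 68 of the 100 highest belonged to wide peaks. Width and score come from the same signal, so these values describe the choice by width and were not tested.

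**Figure D1:**
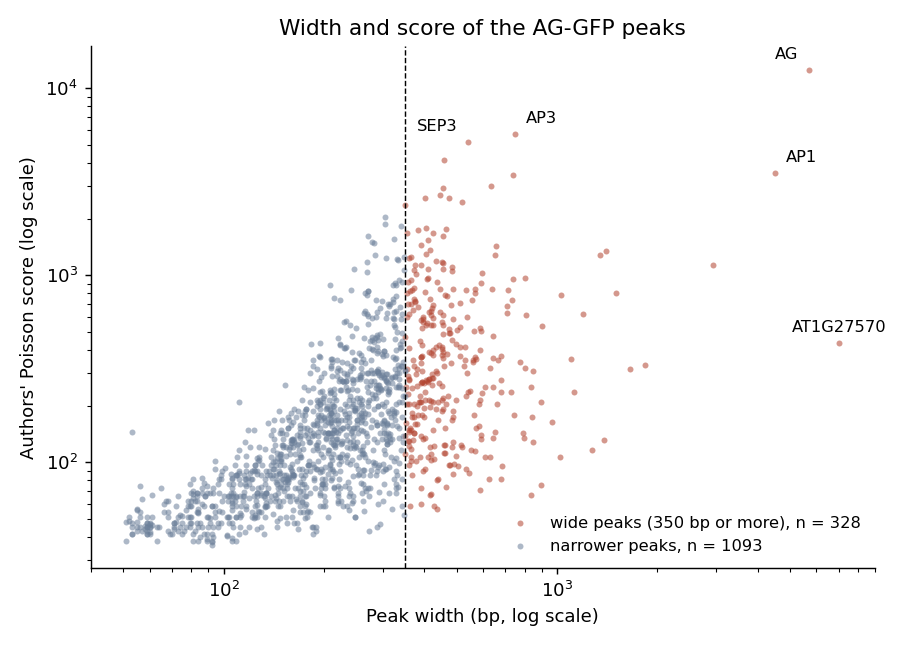
Each point is 1 peak, with its width in bp on the x axis and the authors' Poisson score on the y axis, both on log scales. The dashed line marks 350 bp. The 328 wide peaks to its right span almost the whole range of scores, from 56.2 to 12585, while the 1093 narrower peaks end at 2044.

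Among the wide peaks themselves, a greater width did not go with a higher score. Spearman's rho between width and score was 0.046 over the 328 wide peaks and 0.717 over the 1093 narrower ones, given as a description since peaks of 1 list share their libraries. The 98 peaks of 350 to 399 bp had a median score of 268, the 124 of 400 to 499 bp one of 349, and the 75 of 500 to 749 bp one of 351. For the 15 peaks of 750 to 999 bp the median was 211, for the 12 of 1000 to 1999 bp it was 345, and for the 4 of 2000 bp or more it was 2334. The summit position was farther from the middle in longer peaks. The median offset was 8.38% of the width at 350 to 399 bp, 11.2% at 400 to 499 bp, 19.4% at 500 to 999 bp and 27.9% at 1000 bp or more, against 9.91% in the narrower peaks.

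The limit of 350 bp cut through a continuous range of widths. The 5 peaks just inside it were 350 to 352 bp wide and scored 111, 139, 469, 2363 and 163. The peak with 2363 was linked within 1000 bp upstream of AT3G10040, annotated as a transcription factor gene. By the RefSeq gene spans, its position fell inside that gene. The peak of exactly 350 bp lay in TGA9, beside a higher one in the same gene. The 5 peaks just outside the limit were 348 and 349 bp wide and scored 52.4, 1065, 226, 308 and 310. At the other extremes, the 5 lowest scores of wide peaks were 56.2, 58.2, 58.4, 59.8 and 66.5. The 5 highest scores of narrower peaks were 2044, 1871, 1843, 1622 and 1559, and the first of these lay within 1000 bp upstream of ATH1, a homeobox gene.

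The 3 longest peaks were of different kinds. The longest, 7045 bp with a score of 434, lay at chr1:9575428-9582472 inside AT1G27570, annotated as a phosphatidylinositol 3- and 4-kinase family gene. The next, 5725 bp with the top score of 12585, lay at chr4:10382388-10388112 inside AG itself. The third, 4501 bp with a score of 3529, lay at chr1:25982690-25987190 inside AP1, a sepal and petal identity gene. Inside refers to the peak position here and below, and all 3 peaks reached past an end of their gene. AG and AP1 each had a second wide peak farther upstream. That of AG, 733 bp wide with a score of 736, lay 1000 to 2000 bp upstream, and that of AP1, 1403 bp wide with a score of 1352, lay 2000 to 3000 bp upstream. The upstream peak of AP1 also stood within 1000 bp upstream of a gene for an isoleucine tRNA, AT1G69130.

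The peak inside AT1G27570 belonged to a run of 14 peaks, each within 2000 bp of the next, at chr1:9567556-9592023. Of these 14 peaks, 9 were wide, and together the 14 covered 17181 bp. Besides the peak of 7045 bp, the wide members measured 2942, 1843, 1197, 1127, 902, 512, 398 and 374 bp. Their scores lay between 161 and 1138, so none reached the score of the AP1 peak. The run spanned the F-box protein genes AT1G27540, AT1G27550 and AT1G27580 as well as AT1G27565, a gene of unknown function. Of the 15 widest peaks in the list, 5 belonged to this run.

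FD, the bZIP partner of the florigen FT, also had 2 peaks above 1000 bp. One of 1099 bp with a score of 358 lay inside the gene at chr4:17005811-17006909. Another of 1032 bp with a score of 781 lay 2000 to 3000 bp upstream. No narrower peak lay within 4000 bp of FD, AG or AP1.

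**Figure D2:**
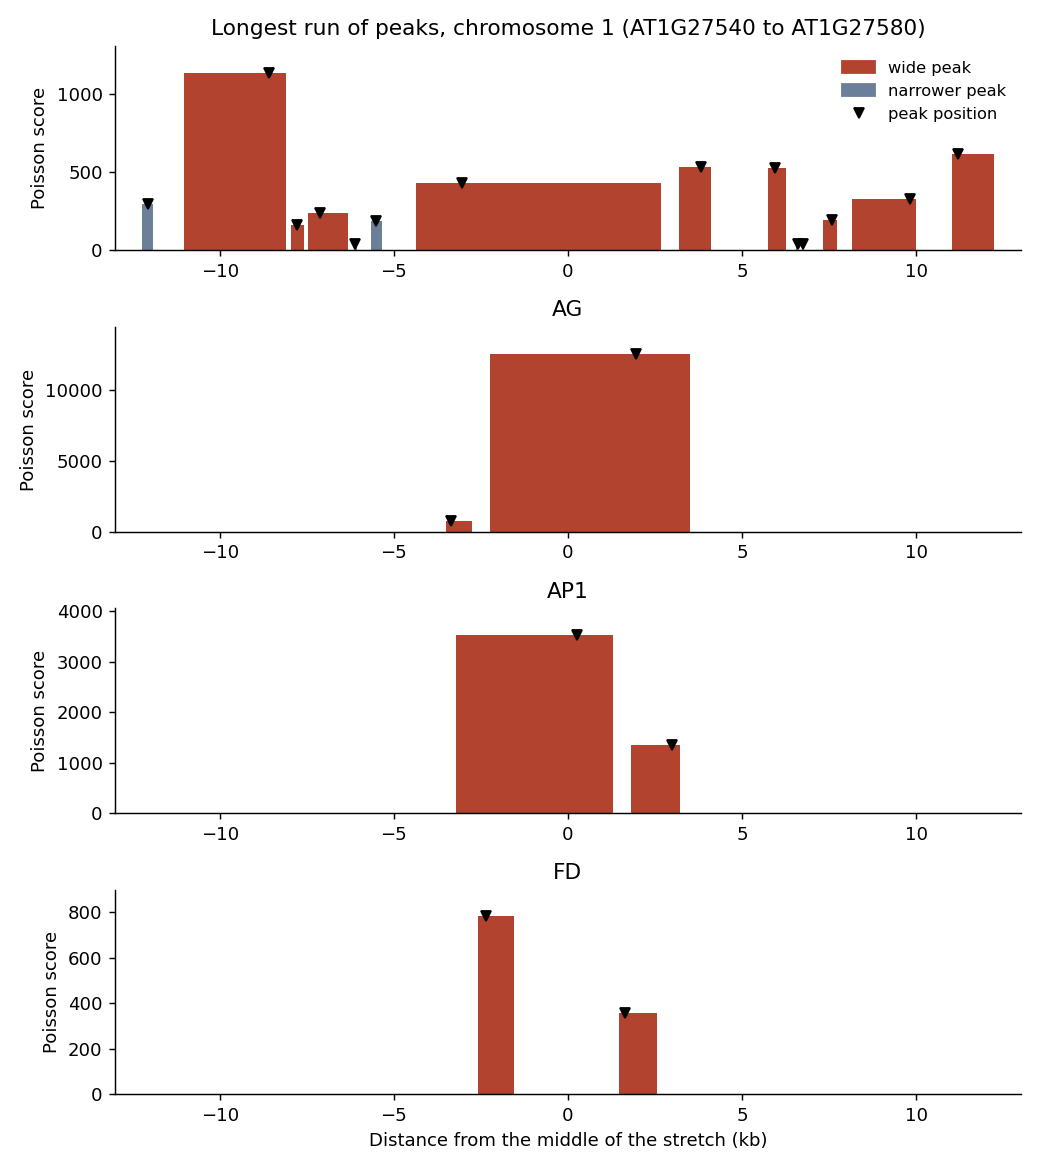
Peaks at 4 places, drawn to scale along the chromosome as the distance in kb from the middle of each stretch (x axis), with the Poisson score as the bar height (y axis, a scale per panel) and a triangle at the peak position. The run of 14 peaks holds 9 wide members and scores up to 1138, while AG and AP1 each show 1 long peak of high score, 12585 and 3529, beside a shorter one.

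Of the 15 widest peaks, 5 had no linked gene. A peak of 1657 bp with a score of 315 at chr5:11731165-11732821 lay 95115 bp from the nearest protein-coding gene. One of 1502 bp and 806 at chr4:17408155-17409656 lay 4494 bp from AT4G36925. A peak of 1381 bp and one of 1278 bp on chromosome 3, with scores of 132 and 117, were 11833 and 20926 bp from the nearest protein-coding gene. The fifth, 1349 bp wide with a score of 1284 at chr1:15083355-15084703, had its position inside AT1G40104 by the RefSeq spans. That gene is in the target table with a higher narrower peak of 340 bp, which scored 1843.

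Some wide peaks, mostly long ones, lay in gene-poor surroundings. Of the 328 wide peaks, 22 (6.71%, exact 95% interval 4.25 to 9.98%) had 10 or fewer protein-coding genes within 50000 bp, against 34 of 1093 narrower peaks (3.11%, 2.16 to 4.32%). By width, the share was 2.04% at 350 to 399 bp, 2.42% at 400 to 499 bp, 13.3% at 500 to 999 bp and 31.2% (5 of 16) at 1000 bp or more. The 22 peaks had a median width of 643.5 bp and a median score of 277, against 438.5 bp and 315 for the other wide peaks. Target genes were linked to 5 of them, among them the peak of 713 bp at LSH1, a gene of light-dependent hypocotyl growth, and the one of 592 bp inside PUM9, a Pumilio RNA-binding protein gene. The median number of protein-coding genes within 50000 bp was 27 for wide and for narrower peaks. No test was run on these counts.

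Wide peaks often stood beside another peak. Another peak lay within 2000 bp of 105 wide peaks (32.0%, 27.0 to 37.4%), against 207 narrower ones (18.9%, 16.7 to 21.4%). Within 500 bp the counts were 48 wide peaks (14.6%) and 62 narrower ones (5.67%). Among peaks at least 1000 bp wide, 12 of 16 (75.0%) had another peak within 2000 bp. Several of these 12 were members of the run on chromosome 1 or each other's neighbours, as at AP1. They therefore do not stand for 12 separate places. By chromosome, wide peaks made up 26.1% of the peaks on chromosome 1, 17.6% on chromosome 2, 20.8% on chromosome 3, 23.9% on chromosome 4 and 24.3% on chromosome 5, with overlapping exact intervals.

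**Figure D3:**
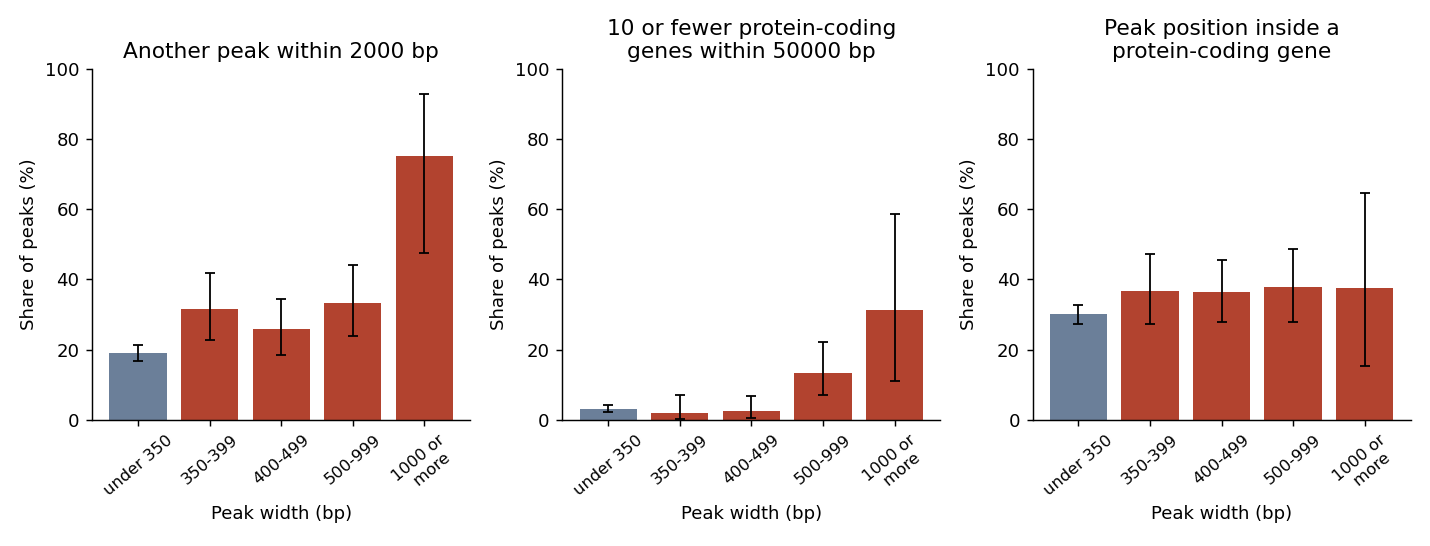
Share of peaks, in percent, by width class in bp for another peak within 2000 bp (left), 10 or fewer protein-coding genes within 50000 bp (middle) and a peak position inside a protein-coding gene (right), with exact 95% intervals that cover counting error. The 16 peaks of 1000 bp or more have the highest shares in the left and middle panels, 75.0% and 31.2%, while the 4 wide classes of the right panel lie between 36.3 and 37.8%. The intervals take neighbouring peaks of the same run as separate.

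Relative to genes, wide peaks lay somewhat more often inside them and less often just upstream than narrower peaks did. The peak position fell inside a protein-coding gene for 121 of 328 wide peaks (36.9%, exact 95% interval 31.7 to 42.4%), against 328 of 1093 narrower peaks (30.0%, 27.3 to 32.8%). By a two-sided Fisher's exact test, the odds of lying inside were 1.36 times as high for wide peaks (1.04 to 1.78, adjusted p = 0.0463 by Benjamini-Hochberg over 5 location measures). In the authors' target table, 80 wide peaks (24.4%) were linked inside a gene, against 205 narrower ones (18.8%), with an odds ratio of 1.40 and the same adjusted p of Fisher's exact test. A link within 1000 bp upstream was found for 119 wide peaks (36.3%), against 478 narrower peaks (43.7%), with an odds ratio of 0.733 (0.562 to 0.952, Fisher's exact test, adjusted p = 0.0463). A peak can count both inside a gene, by the RefSeq spans, and within 1000 bp upstream, by the target table, as those of AP3 and PI do. These tests take each peak as a unit, and peaks are not replicates of a condition. All 3 calls were lost without the 2 peaks inside AG and AP1 (Fisher's exact test, adjusted p = 0.0742 to 0.0802) and without the run of 14 peaks (adjusted p = 0.0656), while the odds ratios moved little. Inside protein-coding genes, linked inside a gene and linked within 1000 bp upstream they were 1.34, 1.36 and 0.74 without the peaks in AG and AP1, and 1.38, 1.40 and 0.762 without the run.

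The other locations did not pass the test. A link 1000 to 3000 bp upstream was found for 146 wide peaks (44.5%), against 492 narrower ones (45.0%; odds ratio 0.98, 0.758 to 1.27, Fisher's exact test, adjusted p = 0.899). Downstream within 1000 bp the counts were 70 wide peaks (21.3%) and 278 narrower ones (25.4%; odds ratio 0.796, 0.582 to 1.08, Fisher's exact test, adjusted p = 0.179). Where a wide peak was linked within 1000 bp upstream, it covered the 5′ end of the gene in 61 of the 118 table entries placed on a strand (51.7%), against 117 of 478 for narrower peaks (24.5%). The median distance of the peak position from that end was 254 bp for wide and 320 bp for narrower peaks. A long peak reaches farther from its position, and whether width alone gives this difference was not tested.

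**Figure D4:**
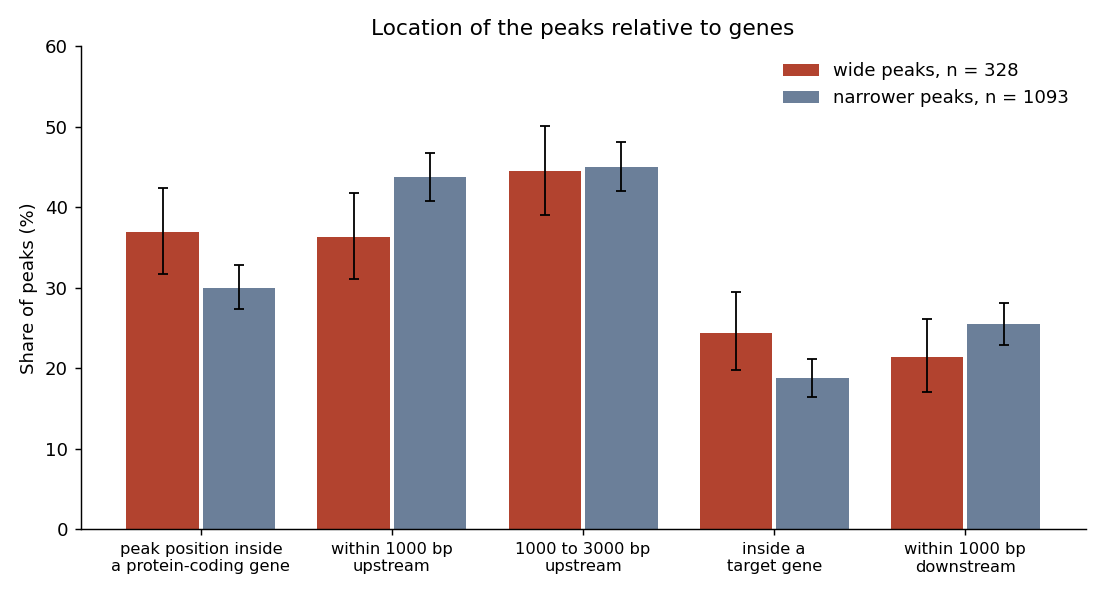
Share of wide and narrower peaks, in percent, at each of 5 locations relative to genes, with exact 95% intervals. Wide peaks reach 36.9% inside protein-coding genes against 30.0% for narrower ones, and 36.3% within 1000 bp upstream against 43.7%.

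The target table links 450 genes to wide peaks, of which 392 had wide peaks only and 58 had narrower ones as well. Another 1465 genes had narrower peaks only. Of 27444 protein-coding genes, 428 (1.56%) were linked to a wide peak, and 6.62% were in the target table at all. A wide peak had 1.44 linked genes on average and a narrower one 1.46. No gene was linked to 54 wide peaks (16.5%), against 130 narrower peaks (11.9%). For 27 of the 54, the nearest protein-coding gene was more than 3000 bp away. For 14, it was a target gene within 3000 bp, and the table lists only the highest score in each region. For the other 13, it lay within 3000 bp but was not a target gene.

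Of the 13 floral organ identity genes listed, 9 were targets, 6 of them of wide peaks. Wide peaks were linked to 23.5% of all linked target genes and to 1.56% of all protein-coding genes. Besides AG and AP1, where transgene signal cannot be told apart, the 6 were AP3, PI, SEP3 and AP2. AP3 and PI are the petal and stamen genes, SEP3 joins the organ identity proteins in complexes, and AP2 is a sepal and petal gene. The AP3 peak within 1000 bp upstream was 748 bp wide and scored 5696, and the SEP3 peak 2000 to 3000 bp upstream was 542 bp wide and scored 5154. Some peaks of list genes, here and in the lists below, were linked to other genes as well. The SEP3 peak was also linked to AT1G24265, its nearest protein-coding gene. The PI peak within 1000 bp upstream was 519 bp wide and scored 2460. The regions named are those of the target table. By the RefSeq spans, the positions of the AP3 and PI peaks fell inside these genes. The AP2 peak 1000 to 2000 bp upstream, 373 bp wide with a score of 860, was near the lower end of the wide range. SEP2, SHP1 and SHP2 had narrower peaks only, of 286, 132 and 283 bp, and the SHP2 peak scored 1495.

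Of the 24 genes in the list for floral meristem and flowering, 4 had wide peaks and 10 had narrower peaks only. FD is described above. SOC1, a MADS-box integrator of flowering signals, had peaks of 590 and 588 bp within 1000 bp and 2000 to 3000 bp upstream, with scores of 908 and 525. By the RefSeq spans, the position of the peak of 590 bp fell inside SOC1. SVP, a MADS-box repressor of flowering, had peaks of 410 bp (score 1078) and 374 bp (score 722). Both were also linked to AT2G22530, and the one of 410 bp lay within 1000 bp upstream of that gene. FUL, a MADS-box gene of meristem and fruit, had 429 and 383 bp with scores of 122 and 179. A narrower peak of FUL, 311 bp wide, scored higher, at 242. Narrower peaks only were linked to LFY, UFO, CLV1, STM, SUP, AGL24, FLC, ULT1, PNF and ATH1. Those of FLC and ATH1 scored 1224 and 2044, above all wide peaks of this list.

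Other MADS-box genes had wide peaks in 3 of 20 cases and narrower peaks only in 7. The wide peak of AGL18 was 383 bp wide and scored 1749, that of AGL15 was 415 bp and 750, and that of AGL6 was 394 bp and 269. A narrower peak of AGL6, 335 bp wide, scored higher, at 321. AGL15 and AGL18 encode repressors of flowering. The genes with narrower peaks only were AGL16, AGL42, AGL19, AGL44, FLM, MAF2 and TT16.

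In the list for stamen and anther development, 3 of 20 genes had wide peaks, all inside the gene. TGA10, a bZIP gene of anther development, had a peak of 801 bp with a score of 965, and its paralog TGA9 one of 390 bp with 266. A narrower peak downstream of TGA9, 306 bp wide, scored higher, at 376. SPL8, an SBP-box gene of anther development, had one of 455 bp with 1164. NZZ, EMS1, TPD1, ROXY1, SERK1, SERK2 and DAD1 had narrower peaks only. Of the 19 carpel, ovule and fruit genes, HEC1, a bHLH gene of the transmitting tract, had a peak of 456 bp with 1087, and ETT, an auxin response factor gene, one of 383 bp with 678. CRC, HEC2, CUC1, CUC2 and VDD had narrower peaks only, and that of CRC scored 1514.

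Leaf growth and polarity genes had wide peaks in 5 of 27 cases and narrower peaks only in 9. GRF5, a growth-regulating factor gene, had peaks of 636 bp with a score of 2993 and 453 bp with 257, both more than 1000 bp upstream. The peak of 636 bp was also linked to AT3G13950, its nearest protein-coding gene, within 1000 bp downstream. GRF2 had one of 501 bp with 509. PHB, a class III homeodomain leucine zipper gene of the upper leaf side, had one of 898 bp with 211 within 1000 bp upstream. PHB belongs to the known targets of miR165 and miR166. As given above, MIR166d and MIR166g also had wide peaks, while MIR165a, MIR166b and MIR166c had narrower peaks only, as did PHV and REV. Whether microRNA genes and their targets share wide peaks was not tested. AS1, a MYB repressor of meristem genes in leaves, had a wide peak of 376 bp with 728. JAG, a zinc finger gene of organ growth, had one of 373 bp with 328 downstream. GRF3, GRF6, GRF7, BOP1, BOP2, PHV, REV, KAN2 and TCP4 had narrower peaks only. Trichome genes were linked to no wide peak (0 of 16 genes, which by the limit of 3 counts allows a share of up to 18.8%), and 7 of them had narrower peaks, of 53 to 261 bp: GL1, GL3, TTG2, TRY, CPC, CPL3 and GIS.

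AP2-like and phase change genes had wide peaks in 5 of 16 cases. TOE3 had peaks of 403 bp with a score of 2590 and 408 bp with 559, both more than 1000 bp upstream. TOE1 had one of 498 bp with 429 and SMZ one of 393 bp with 372. These genes and AP2 are known targets of miR172, and MIR172d had a wide peak as well. SNZ, another gene of this list, had a narrower peak only. TEM1, a repressor of FT, had a wide peak of 485 bp with 1114. SPL2, an SBP-box gene, had one of 412 bp with 390 inside the gene. SNZ, TEM2, RAV1, SPL11 and SPL15 had narrower peaks only. Among the 17 gibberellin genes, the receptor genes GID1C and GID1B had wide peaks of 365 bp with 940 and 373 bp with 205, and GA2OX1, GAI and RGL2 had narrower peaks only. GID1B also had a narrower peak of 199 bp with a score of 211. The comparison lists, 12 photosynthesis genes and 11 matched housekeeping genes, held no target gene.

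**Figure D5:**
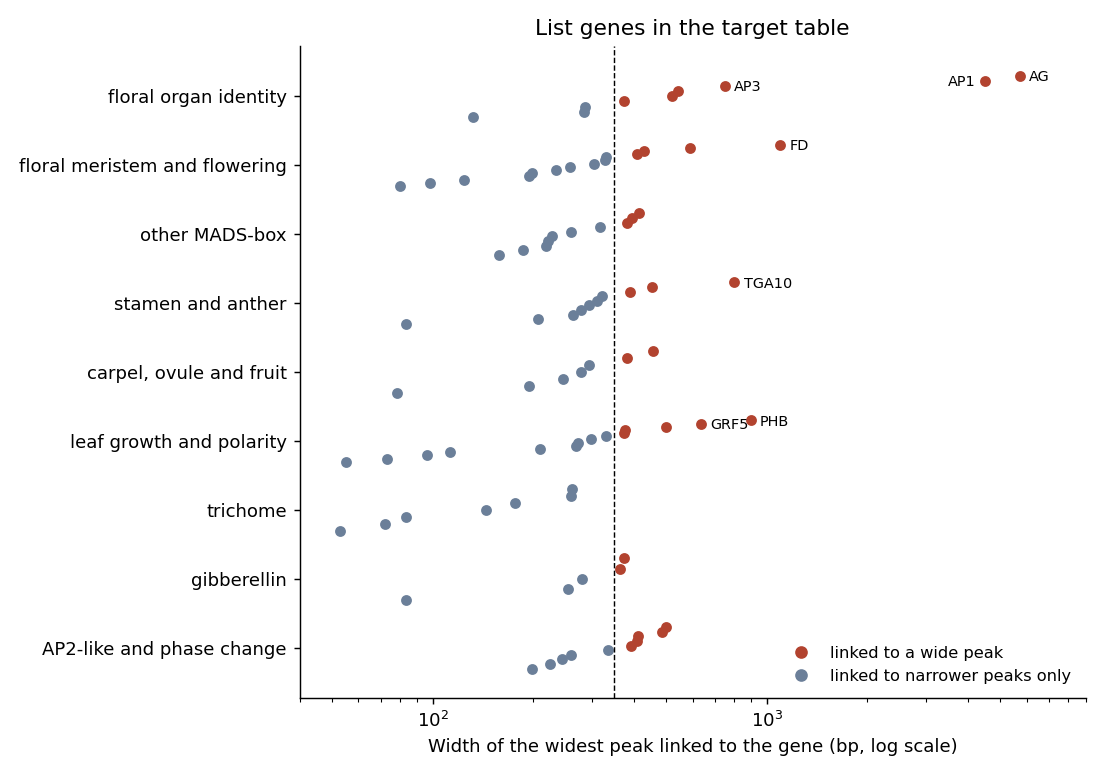
Each point is 1 list gene in the target table, placed by the width in bp of its widest linked peak (x axis, log scale) and grouped by list (y axis). The dashed line marks 350 bp, and genes above 600 bp are labelled. Floral organ identity genes reach 5725 bp, and the 7 trichome genes all stay at 261 bp or below.

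Over all 9 lists of floral and leaf genes, 30 of 172 genes were linked to a wide peak and 56 to narrower peaks only. Wide peaks thus reached 34.9% of the list genes that were targets (exact 95% interval 24.9 to 45.9%), against 23.5% of all linked target genes. The members of the lists are few, and this share describes them without a test.

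Genes linked to 2 or more wide peaks numbered 22 of the 450. A lower wide peak in the same region of a gene stays unlinked, as in TGA9, so more genes can hold 2. Transcription factor genes among the 22 were AG, AP1, GRF5, TOE3, SVP, SOC1, FD, MYBR1, HDG1, FUL and KNAT2. HDG1, a homeodomain gene of the epidermis, had peaks of 654 and 480 bp with a top score of 690.4, and KNAT2, a meristem homeobox gene, had peaks of 796 and 359 bp with a top score of 135. MYBR1, also known as MYB44, had peaks of 589 and 365 bp with a top score of 702. ERL1, a receptor kinase gene of stomatal patterning, had peaks of 679 and 397 bp with a top score of 602. EXL4, annotated as a phosphate-responsive gene, was the one gene linked to 3 wide peaks, of 537, 583 and 564 bp with a top score of 301. The others were AT1G27550, AT1G27565, AT1G27570 and AT1G27580 of the run on chromosome 1, AT2G22530, AT4G16540, AT2G08986, AT5G09445 and AT4G19240. Both wide peaks of AT2G22530 were those of SVP, and both of AT5G09445 were shared with EXL4. The 22 genes therefore do not stand for 22 separate places.

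High scores also occurred at wide peaks of genes outside the lists above, enzyme and cell wall genes among them. Besides AG, AP3, SEP3, AP1, GRF5 and TOE3, the 10 highest-scoring wide peaks lay at AT3G14220, AT5G21280, BBX13 and EXGT-A3. The peak inside AT3G14220, a GDSL lipase family gene, was 459 bp wide and scored 4143. That within 1000 bp upstream of AT5G21280, a hydroxyproline-rich glycoprotein gene, was 739 bp wide and scored 3447. The peak at BBX13, a B-box zinc finger gene, was 456 bp wide and scored 2927, and was also linked to AT1G28040 and AT1G28060. EXGT-A3, a gene of the xyloglucan endotransglucosylase family, had one of 445 bp with 2673.

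Gene classes were set by words in the authors' annotation and in the RefSeq gene synonyms, and are approximate. Transcription factor genes made up 69 of 450 target genes of wide peaks (15.3%, exact 95% interval 12.1 to 19.0%), against 189 of 1465 genes with narrower peaks only (12.9%, 11.2 to 14.7%). Kinase or receptor genes were 30 (6.67%) against 82 (5.6%), cell wall genes 12 (2.67%) against 40 (2.73%), and ubiquitin pathway genes 15 (3.33%) against 54 (3.69%). Transporter or channel genes were 3 (0.667%, 0.138 to 1.94%) against 38 (2.59%, 1.84 to 3.54%). The intervals of each class named here overlapped between the groups, and no class was tested.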

How the data were processed

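Chromatin from 2 AG-GFP and 2 negative control samples was sequenced, and the authors deposited 1 peak list and 1 target table for the whole series. Every peak has a score, called Poisson in the deposited file headers, whose scale is not stated. Start, end, width and position are given in bp. The headers of score and position are exchanged, and the columns were read by their values (every position lies within its peak in 1421 of 1421). Per the submitters' processing notes the genome build is TAIR10. Which aligner, peak caller and threshold were used, and whether replicates were pooled, is not given in the sources used. The target table holds, per the file headers, the highest score in each of 5 regions around 1958 genes.

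A table entry was linked first to the peak of the same score (within 0.006) placed in that region of the RefSeq gene span (TAIR10.1, 1916 of 1958 genes matched, 50 bp slack). The RefSeq table gives no strand, so the strand that placed more entries was taken. An entry with no such peak was linked to a peak of the same score within 3000 bp of the gene. It kept the region given by the target table. In all, 2075 of 2123 entries were linked, and 1902 were placed in their region. A lower peak in the same region stays unlinked. Wide and narrower peaks were compared by Fisher's exact test with Benjamini-Hochberg adjustment over 5 measures at 0.05, and shares carry exact Clopper-Pearson 95% intervals, which cover counting error only. The links and tests were tested on simulated data. Tools were Python 3.11.15, scipy 1.17.1, numpy 2.4.6, pandas 2.3.3 and matplotlib 3.10.9.

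The members and lists were chosen with earlier results of these data known. Named are the 15 widest and 10 highest-scoring wide peaks, the peaks at the 350 bp limit and at the score extremes, list members, and genes linked to 2 or more wide peaks. The microRNA genes, the gene-poor peaks and the words that define the gene classes were chosen or amended after values were seen. Of 196 list symbols, 195 matched a gene. No genome sequence was used here, so the planned search for CArG boxes and the promoter sequences were not run. Alternatives for the width limit, the overlap with genes, the score and the linking are in the closing section, with those added after the data were seen.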

Additional observations from a re-analysis of the deposited data

How the results depend on the processing

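No paired analysis was possible because the deposited tables hold no value per library, and for the same reason no library could be left out. The 3 location calls, wide against narrower peaks, depended on the processing. With the limit at 300 bp the shares were 33.1% inside protein-coding genes, 39.0% linked within 1000 bp upstream and 22.2% linked inside a gene, at 500 bp 37.7, 38.7 and 22.6%, and without the peaks inside AG and AP1 36.5, 36.5 and 23.9%. After the data were seen, peaks with 10 or fewer protein-coding genes nearby were left out (37.3, 38.2 and 25.2%), and so was the run of 14 peaks (37.3, 37.3 and 24.5%). None of these 15 values passed the threshold (Fisher's exact test, adjusted p = 0.0648 to 0.558). At or above the median score, the share within 1000 bp upstream was 36.4% and did not pass either (Fisher's exact test, adjusted p = 0.0810), while both calls inside genes passed with larger odds ratios (1.72 and 1.60, adjusted p = 0.0062 and 0.0366). The share linked 1000 to 3000 bp upstream, never past the threshold, turned above that of narrower peaks at 300 bp (45.1 against 44.8%), at or above the median score (47.9 against 46.7%) and without gene-poor peaks (47.4 against 46.2%). With all annotated genes the call inside genes passed (43.9 against 36.0%, Fisher's exact test, adjusted p = 0.0456). Any overlap of the whole peak gave 52.7 against 38.2%, which is no support, since a longer peak overlaps more by its width. The limit of 500 bp left 106 wide peaks. Counting only the nearest gene, transcription factor genes made up 22.2% of the targets of wide peaks, against 17.3% for narrower peaks, and list genes 10.9 against 5.02% (6.67 against 3.82% with all links). Only links within 1000 bp upstream or inside gave 20.3 against 15.3% for transcription factor genes. The causes were not tested. Target genes per wide peak turned above those per narrower peak at or above the median score (1.502 against 1.460) and without gene-poor peaks (1.5229 against 1.5005). The remaining location values kept their direction and side, and the remaining shares of transcription factor and list genes stayed above those of narrower peaks. Depth is unknown, and 1 score per peak limits every rank.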
